A study of Mus musculus with 4 samples.

Results

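Early distal convoluted tubule (DCT) cells were defined in 4 single-cell libraries of mouse kidney by their own transcripts. A barcode was counted as an early DCT cell when it had 200 to 5000 detected genes, under 50% mitochondrial transcripts, and at least 5 unique molecules (UMIs) of Slc12a3 that made up at least 10 per 10000 of its UMIs. It also needed more Pvalb than S100g UMIs, and fewer than 10 per 10000 UMIs of Slc34a1 and Lrp2 together, which exclude proximal tubule cells. Of 58660 barcodes, 34789 met the limits on genes and mitochondrial transcripts, 2799 of these passed the Slc12a3 and proximal tubule limits, and 1830 were early DCT cells, 5.26% of the cells kept. A further 887 Slc12a3 cells had more S100g than Pvalb and are called late DCT cells here, and 82 had equal UMIs of both.

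The DCT reabsorbs sodium chloride through the thiazide-sensitive cotransporter NCC, encoded by Slc12a3, and it sets the final magnesium content of urine through the channel TRPM6. Its first portion contains parvalbumin, a cytosolic calcium buffer encoded by Pvalb. Its last portion and the connecting tubule after it contain the calcium-binding proteins calbindin-D9k (S100g) and calbindin-D28k (Calb1), and they take up calcium through TRPV5 and return it to blood through the sodium-calcium exchanger NCX1 (Slc8a1). A kinase cascade of WNK1, WNK4 and SPAK (Stk39) switches NCC on, and KLHL3 with cullin 3 (Cul3) marks the WNK kinases for degradation.

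The kidneys came from male C3H mice (C3H/HeJ in the methods of the study), aged 18 weeks, that carried either wild-type Slc5a2 (WT) or the Sweet Pee (SP) missense mutation, which leaves the glucose cotransporter SGLT2 without function and causes glucosuria. Mice ate a normal diet (ND) or a high-fat diet (HFD) with 60% of calories from fat for 8 weeks from 10 weeks of age. Each of the 4 conditions was measured in 1 library made from digested whole kidney, and the number of mice per library is not given in the sources used here. Because SP is a missense allele of a gene used in proximal tubule cells, the Slc5a2 level checks no label. Values below are given for WT-ND and WT-HFD first and then for SP-ND and SP-HFD, as CPM (UMIs of a gene summed over the cells of a library, per 1000000 UMIs) unless stated otherwise.

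The 4 libraries held 508, 403, 381 and 538 early DCT cells with 3135995, 3872307, 3017057 and 4536557 UMIs in all. Their median depths were 5480, 9121, 7453 and 8109 UMIs per cell, and the median mitochondrial share was 30.2%, 32.5%, 31.2% and 34.5%. The cells of WT-ND were thus the shallowest. Some UMIs in these cells came from other cell types. The 14 proximal tubule markers summed to 4564, 2436, 1505 and 1500.5 CPM in early DCT cells and to 7997, 2471, 1931 and 2275 CPM in Ptprc-positive immune cells, which should lack them; Kap was the most abundant, at 2885, 1329.7, 485 and 803 CPM in early DCT cells. Both sums were highest in WT-ND. A single SP-HFD cell held 1851 of the 1853 Hbb-bs UMIs of that library, and in WT-HFD 1 cell held 3315 of 5072 Igkc UMIs, 1284 of 2075 Igha UMIs and 759 of 1157 Jchain UMIs. In SP-HFD the immunoglobulin UMIs were spread over cells, with 474 Igkc UMIs in 309 of 538 cells and at most 5 in 1 cell, and 432 Igha UMIs in 291 cells. Hbb-bs in SP-HFD and the immunoglobulin genes in WT-HFD thus rested largely on single barcodes, and the immunoglobulin genes in SP-HFD did not. The summed level in early DCT cells was 20.1, 195, 48.4 and 119 CPM for immune markers, 18.2, 193, 29.2 and 26.5 CPM for fibroblast and mural markers and 68.6, 168, 67.6 and 44.7 CPM for endothelial markers, each highest in WT-HFD. No doublet caller was run, and 296 members (16.2%) held 3 or more UMIs of principal, intercalated, endothelial, immune, fibroblast or podocyte markers together. Of 58280 distinct barcode sequences 379 occurred in more than 1 library, 21 member barcodes occurred in another library, and 1 sequence was a member in 2 libraries.

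The 3 genes that place a cell in the early DCT differ in the sequence before their start sites, shown here since the definition rests mainly on them. The 250 bases before the first annotated start are from RefSeq (build GRCm38.p6), written 5′ to 3′ on the gene's own strand. Capitals mark TATAAA, the TATA-box letters, and AAGGTCA, the half-site letters bound by nuclear receptors such as the oestrogen-related receptors, on either strand. The Slc12a3 window lies at chr8:94328958-94329207 (plus strand), the Pvalb window at chr15:78206401-78206650 (minus strand) and the S100g window at chrX:162964600-162964849 (minus strand).
Slc12a3: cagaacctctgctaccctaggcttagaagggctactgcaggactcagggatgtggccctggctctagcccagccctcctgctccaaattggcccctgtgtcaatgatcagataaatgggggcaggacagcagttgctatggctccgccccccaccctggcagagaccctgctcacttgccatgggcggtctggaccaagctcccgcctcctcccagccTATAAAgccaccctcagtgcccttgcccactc
Pvalb: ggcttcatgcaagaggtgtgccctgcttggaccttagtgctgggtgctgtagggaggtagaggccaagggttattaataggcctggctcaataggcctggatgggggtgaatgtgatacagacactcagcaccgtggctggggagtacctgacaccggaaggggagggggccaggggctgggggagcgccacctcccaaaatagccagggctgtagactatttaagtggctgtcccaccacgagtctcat
S100g: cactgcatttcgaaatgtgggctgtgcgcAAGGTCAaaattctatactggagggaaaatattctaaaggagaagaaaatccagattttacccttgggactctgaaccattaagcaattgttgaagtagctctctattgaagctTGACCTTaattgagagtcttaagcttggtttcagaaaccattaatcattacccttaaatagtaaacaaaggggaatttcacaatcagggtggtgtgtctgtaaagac
Slc12a3 had 1 TATAAA close to its start, S100g had 2 AAGGTCA, and Pvalb had neither. Among 32851 RefSeq windows of the same length, 12.4% held TATAAA and 4.08% held AAGGTCA. Neither set of letters contains the other, and a match is a run of letters and not a shown binding site. Of the late DCT and connecting tubule markers with a window, Klk1 also held AAGGTCA.

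The label of early DCT was checked against its markers. The rule chose the cells on Slc12a3 and Pvalb, so their levels are a description: Slc12a3 stood at 6025, 5307, 6730.1 and 5376 CPM and Pvalb at 3109.7, 3804, 2753 and 3966 CPM. Within a library Slc12a3 ranged from the 10th to the 90th percentile of WT-ND cells between 30.9 and 94.8 per 10000. Trpm6, which the rule did not use, was at 136, 182, 172 and 162 CPM in early DCT cells, at 1.20, 1.54, 1.20 and 1.31 CPM in thick ascending limb cells and at 0.914, 0.453, 1.17 and 3.39 CPM in Ptprc-positive cells. All 4 early DCT values lay far above every value of the other tubule segment and of the immune cells. A Trpm6 UMI was present in 53.0, 67.2, 65.1 and 63.2% of early DCT cells. With cells thinned to 1000 UMIs, leaving out the shallower cells (0, 2, 1 and 2 early DCT cells and at most 14 thick limb, 12 Ptprc-positive and 4 late cells in a library), the shares became 12.99, 12.97, 16.8 and 14.9%, against at most 0.226% of thick limb cells and at most 0.220% of Ptprc-positive cells in any library. Before thinning, Ptprc-positive cells had median depths of 2660, 4570.5, 3526 and 3569 UMIs. Early DCT cells thus carried the third given marker, Trpm6, above background in all 4 libraries. Late cells carried it too, with a Trpm6 UMI in 49.5, 54.7, 67.9 and 54.1% of cells before and 10.0, 6.57, 12.7 and 9.19% after thinning, so that a Trpm6 UMI does not by itself tell an early from a late cell. Some markers of neighbouring segments were low, Cldn16, a claudin of the thick limb, at 1.91, 4.39, 2.65 and 4.19 CPM and Trpv5, the calcium channel of the late DCT, at 0.638, 1.29, 1.33 and 1.76 CPM, and others were not. The 7 thick limb markers summed to 3839, 5974, 3928 and 7197 CPM in early DCT cells, most of it Umod, against 19919, 22589, 17654 and 21650.4 CPM in thick limb cells. The 9 late DCT and connecting tubule markers, S100g of the rule among them, summed to 1756, 2432, 1718 and 2626 CPM in early DCT cells, with Calb1 the most abundant.

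**Figure D1:**
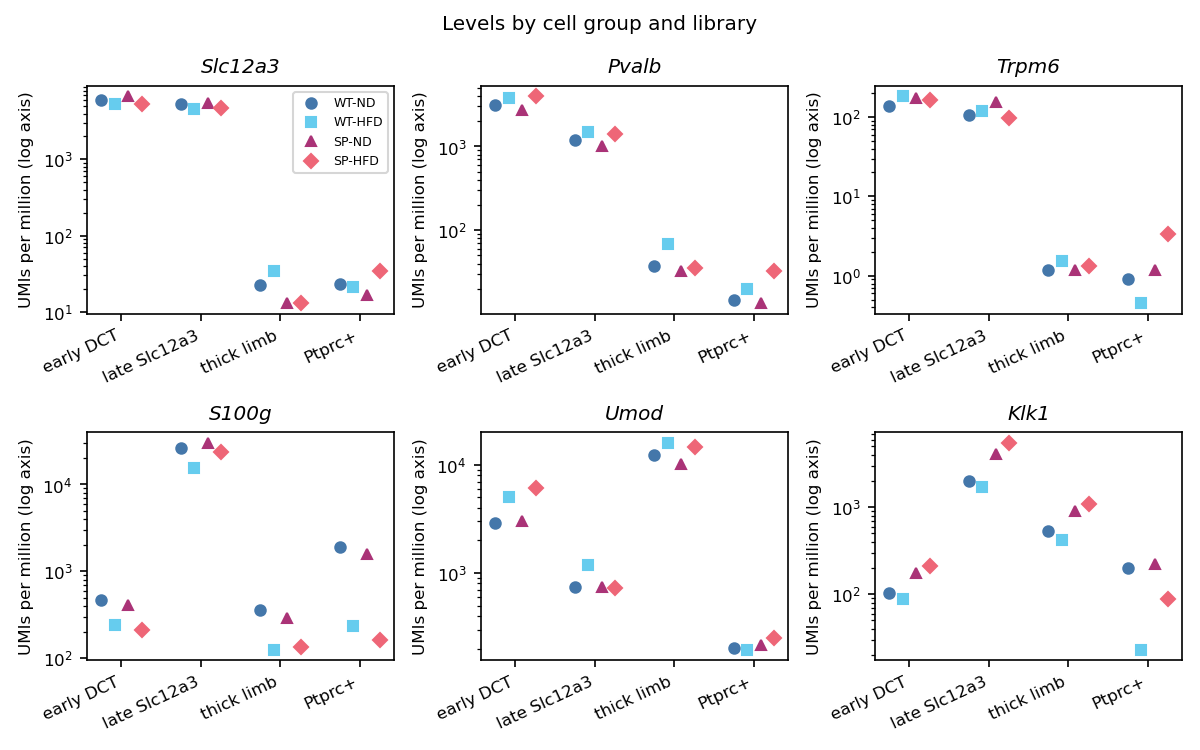
Pooled level (CPM, log axis) of 6 genes in early DCT, late DCT, thick limb and Ptprc-positive cells, with 1 point per library. Slc12a3 and Pvalb set the gates with S100g, while Trpm6 (136 to 182 CPM in early DCT cells), Umod and Klk1 were not used by the rule.

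Few cells lay close to the limits that set early DCT cells apart. Only 10 barcodes lay just outside the Slc12a3 limit (9 to 10 per 10000) and 11 just inside it (10 to 11 per 10000), with median depths of 10920.5 and 8516 UMIs. At the other limit 51 members had 1 more Pvalb than S100g UMI, at a median of 4379 UMIs, and 82 excluded cells had equal numbers, at a median of 2464.5 UMIs. On the other side, 1470 members (80.3%) had at least 10 Pvalb UMIs and 723 (39.5%) had no S100g UMI. S100g in members was 469.7, 241, 414 and 211 CPM, and in Ptprc-positive cells, which should lack it, 1930.4, 235, 1567 and 162 CPM. Both were higher in the 2 ND libraries than in the 2 HFD libraries.

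Early DCT cells were first compared with late DCT cells of the same libraries, which asks what else goes with the Pvalb and S100g split. Relative to late cells, early cells had more Umod, Egf, Fxyd2, Trpm7 and Oxct1 and less Klk1, Slc8a1, Calb1, Trpv5 and immediate early transcripts. UMIs were summed per library and cell group and tested with edgeR's quasi-likelihood test with library as a block (n = 4 libraries, Benjamini-Hochberg adjustment over 10191 genes, the 5 genes of the rule left out). Of these, 633 (6.21%) were higher and 608 (5.97%) lower in early cells at an adjusted p below 0.05, and the median log2 fold change of all genes was -0.0087. These p-values measure the spread between 4 libraries. DESeq2 called 273 higher and 294 lower, and edgeR on cells with under 30% mitochondrial UMIs called 292 and 303. Of 6 thick limb markers tested 2 were higher and 0 lower (median 0.17).

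Transport genes of the early DCT came out in order of role as follows. Egf, the precursor of a hormone that acts on TRPM6, was at 4522, 4411, 4383 and 5003 CPM in early and 2133, 2787, 1827 and 2768 CPM in late cells (log2 fold change 0.93 ± 0.0760 SE, adjusted p = 5.1e-06). Each early value exceeded each late value. The share of all genes whose early and late values do not overlap was not counted, here or below. Fxyd2, the gamma subunit of the sodium pump, was higher in early cells by 1.22 ± 0.0521 SE (adjusted p = 2.9e-08), while the pump subunit Atp1b1 (0.069, adjusted p = 0.56) did not pass the test. Of the 11 magnesium genes tested by edgeR, 5 were higher and 0 lower, against 6.21% higher and 5.97% lower among all genes. The median log2 fold change of the 11 was 0.42. The 5 higher by edgeR were Trpm6 (0.42 ± 0.0951 SE, adjusted p = 0.011), Trpm7, a related channel kinase (0.90 ± 0.0736 SE, adjusted p = 5.2e-06), Egf, Pcbd1, a transcriptional cofactor (0.56 ± 0.0934 SE, adjusted p = 0.0014), and Umod. Trpm7 stood at 458, 473, 452 and 459.6 CPM in early cells and 283, 214, 245 and 224 CPM in late cells, and the groups did not overlap. Cnnm2, a basolateral protein of magnesium transport, had a log2 fold change of 0.051 and did not pass.

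Genes of NCC control, a list of the WNK cascade and aldosterone signalling, were unequal along the DCT. Of the 19 tested, 5 were higher in early cells and 3 lower (median -0.039), against 6.21% higher and 5.97% lower among all genes. Ppp1r1a, an inhibitor of protein phosphatase 1, stood at 885, 989, 888 and 1063 CPM in early and 441, 529, 429 and 546 CPM in late cells (0.94 ± 0.0493 SE, adjusted p = 1.5e-07). Stk39, the kinase SPAK, differed by 0.65 ± 0.0735 SE (adjusted p = 6.7e-05), Wnk4 by 0.33 ± 0.0565 SE (adjusted p = 0.0018) and Klhl3 by 0.31 ± 0.0646 SE (adjusted p = 0.0064), all by edgeR and all higher in early cells. Wnk1, the most abundant gene of the list at 2539.9, 2230.2, 2618 and 2438 CPM in early cells, was slightly lower there (-0.18 ± 0.0524 SE, adjusted p = 0.042). Nedd4l, a ubiquitin ligase, and Sgk1, a kinase induced by aldosterone, were lower in early cells, Sgk1 with a log2 fold change of -0.94 ± 0.191 SE (adjusted p = 0.0054). The glucocorticoid receptor gene Nr3c1 was the fifth higher gene at 25.8 to 38.4 CPM, and the mineralocorticoid receptor gene Nr3c2 had a log2 fold change of -0.21 (adjusted p = 0.47). Of 18 other DCT genes 7 were higher and 2 lower (median 0.21).

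**Figure D2:**
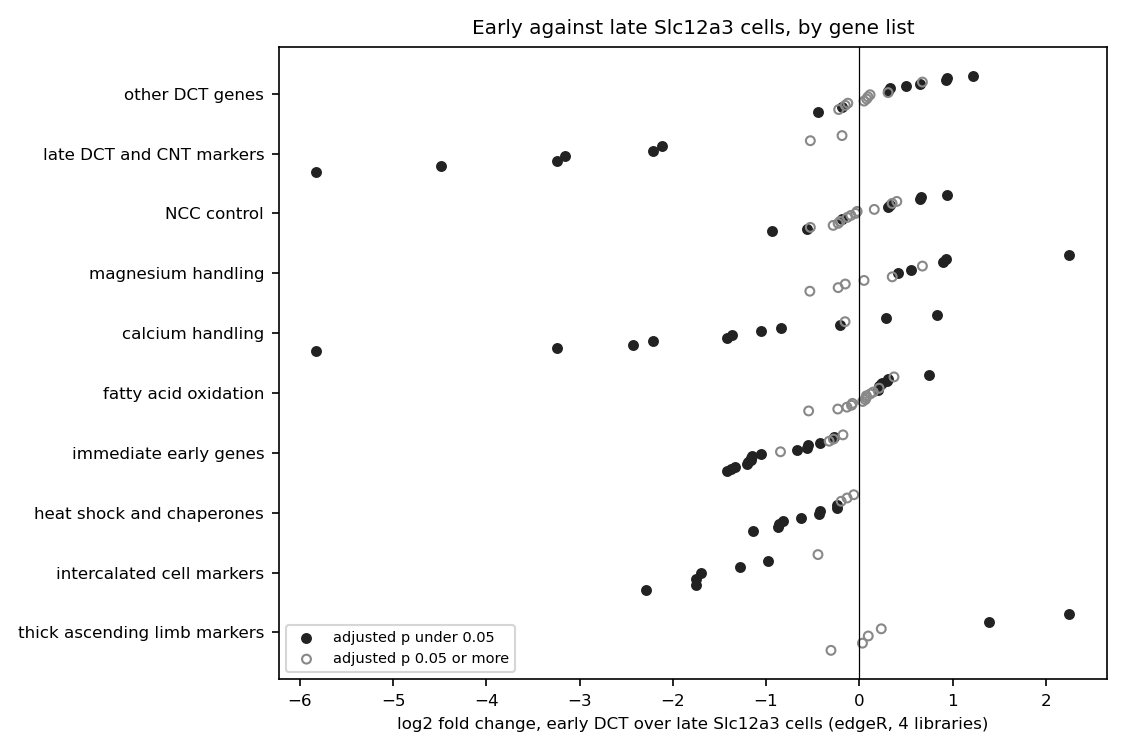
Log2 fold change of early over late DCT cells (edgeR, library as block, n = 4 libraries) for the members of 10 gene lists, with 1 point per gene and filled points for an adjusted p below 0.05. The filled magnesium genes lie right of 0, while most filled calcium genes and all filled late DCT markers and immediate early genes lie left of it.

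Calcium entry and exit genes marked the other side of the split. Of 12 calcium genes tested, 2 were higher and 9 lower in early cells (median -1.21), against 6.21% higher and 5.97% lower among all genes, the shares that also apply to the counts below. Calb1 stood at 595, 1295, 598 and 1371 CPM in early and 4615, 2522, 6214 and 3758 CPM in late cells (-2.22 ± 0.320 SE, adjusted p = 0.00047), and Slc8a1 at 217, 507, 208 and 506 and 3294, 2301, 3849.8 and 3139.7 CPM (-3.25 ± 0.275 SE, adjusted p = 6.5e-06). Trpv5, the apical calcium channel, had 0.638 to 1.76 CPM in early and 58.6 to 86.3 CPM in late cells (-5.82 ± 0.176 SE, adjusted p = 1.5e-09). No early value reached any late value of these 3 genes. The epithelial sodium channel was divided by subunit: Scnn1b (-2.12 ± 0.0911 SE, adjusted p = 2.9e-08) and Scnn1g (-3.15 ± 0.151 SE, adjusted p = 9.1e-08) were lower in early cells, while Scnn1a was at 231 to 260.2 CPM in early and 261 to 293 CPM in late cells and did not pass (adjusted p = 0.058). Klk1, tissue kallikrein, had the lowest fold change of the genes named by size (-4.49 ± 0.0796 SE, adjusted p = 4.9e-12). Of 10 aldosterone-sensitive transport genes 0 were higher and 4 lower, and of 7 intercalated cell markers 0 were higher and 6 lower, the most abundant being the proton pump subunit Atp6v1g3 at 66.6, 139, 69.6 and 101 CPM in early and 389, 462, 462 and 438 CPM in late cells. Without cells that held 3 or more UMIs of other cell types, a set partly defined by Atp6v1g3, its fold change was -0.16 (adjusted p = 0.64 by edgeR).

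Immediate early and heat shock genes were lower in early than in late cells. Of 18 AP-1 and immediate early genes 0 were higher and 14 lower (median -0.95), and of 12 heat shock genes 0 were higher and 9 lower (median -0.43), against the 5.97% lower among all genes. Fos, a transcription factor subunit, stood at 152, 199, 142 and 160.0 CPM in early and 291, 585, 243 and 403 CPM in late cells (-1.20 ± 0.0993 SE, adjusted p = 5.3e-06), and Junb at 87.4, 98.4, 84.5 and 94.6 and 161, 364, 189 and 272 CPM (-1.42 ± 0.121 SE, adjusted p = 6.8e-06). The widest gap in both was in WT-HFD. There late cells also held more proximal tubule markers than early cells (6270 against 2436 CPM). The same held for principal cell markers (373 against 130 CPM). In both ND libraries late cells held less of both. In SP-HFD the values were 1365 against 1500 and 142 against 138 CPM. Fos was more abundant still in Ptprc-positive cells, at 1345, 1662, 1348 and 1391 CPM. Median depth was 6970, 10498, 10642 and 9157 UMIs in late cells and the median mitochondrial share 33.7%, 35.7%, 34.8% and 34.8%, each above that of the early cells of its library. The part of depth, of mitochondrial share, of other cell types and of the tissue digestion in this difference was not tested.

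Some genes of fuel use were higher in early cells by small amounts. Of 20 genes of fatty acid oxidation and PPAR targets tested, 7 were higher in early cells and 0 lower (median 0.13), against 6.21% higher and 5.97% lower among all genes. Fabp3, a fatty acid binding protein, was at 609, 723, 607 and 797 CPM in early and 321, 474, 356 and 445 CPM in late cells (0.75 ± 0.0579 SE, adjusted p = 2.9e-06), and the enzyme gene Acadl differed by 0.31 ± 0.0684 SE (adjusted p = 0.0095). Oxct1, the enzyme that activates ketone bodies for oxidation, was at 1642, 1510.2, 1718 and 1823 and 1032, 871, 1008 and 976 CPM (0.75 ± 0.0548 SE, adjusted p = 2.1e-06), and the monocarboxylate transporter gene Slc16a7 at 961, 845, 1090.5 and 1031 and 631, 526, 721 and 599.5 CPM (0.63 ± 0.0545 SE, adjusted p = 7.5e-06). Every early value of Fabp3, Oxct1 and Slc16a7 lay above every late value, an order whose share among all genes was not counted. Of 16 glycolysis genes 1 was higher, a share near that of all genes, and 3 were lower.

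The genes with the highest fold change over late cells, among those at 100 CPM or more, were Pigr, Wfdc15b, Umod, Apoe, Upp1, Ckb, Tfrc, Ptgfr, Gpx6 and Fxyd2. Pigr, the receptor that carries polymeric immunoglobulin across epithelia, stood at 591, 505, 708 and 449.9 CPM in early, 88.2, 45.7, 66.8 and 28.1 CPM in late and 75.1, 45.3, 46.7 and 52.4 CPM in thick limb cells. It was higher in early DCT cells than in either of the other groups (3.27 ± 0.138 SE, adjusted p = 2.9e-08 against late cells by edgeR, and 3.39 ± 0.129 SE, adjusted p = 9.5e-10 against thick limb cells). Umod, uromodulin, was intermediate: 2892, 5067, 3046 and 6169 CPM in early, 745, 1191, 741 and 719 CPM in late and 12412, 16022, 10259 and 14676 CPM in thick limb cells. Umod in Ptprc-positive cells was 200.3, 195, 217 and 252 CPM, so the level in early cells exceeded this background in every library. Wfdc15b and Ckb, the brain-type creatine kinase, followed the order of Umod, with thick limb cells highest. The transferrin receptor gene Tfrc (1.31 ± 0.0964 SE, adjusted p = 2.2e-06) and the prostaglandin F receptor gene Ptgfr (1.29 ± 0.0741 SE, adjusted p = 3.2e-07) were, like Pigr, higher in early DCT cells than in either neighbour. At the same limit of 100 CPM, the genes lowest against late cells were Klk1, Slc8a1, Rasd1, Atp6v1g3, Calb1, Cav2, Scnn1b, Cyp2j11, Slc25a30 and Hes1.

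Against thick limb cells, the segment upstream, early DCT cells were marked by Trpm6, transcription factor genes of the distal nephron and lower levels of thick limb claudins. Of 11539 genes tested by edgeR in the same way (Slc12a1 also left out), 1666 (14.4%) were higher and 1875 (16.2%) lower. DESeq2 called 1015 higher and 1152 lower. By edgeR Trpm6 led (6.97 ± 0.109 SE, adjusted p = 3.7e-13), followed by the transcription factor genes Lhx1 (6.52 ± 0.132 SE, adjusted p = 3.6e-12) and Emx1 (6.02 ± 0.117 SE, adjusted p = 2.8e-12). Lhx1 stood at 263, 141, 240.0 and 198 CPM in early and 3.75, 1.54, 1.66 and 2.63 CPM in thick limb cells, and Emx1 at 209, 212, 212 and 228 and 3.60, 3.86, 3.50 and 2.39 CPM. Both were also present in late cells, at 110.1 to 200.1 and 169 to 261 CPM. Next came Pgam2, a muscle-type glycolytic mutase, Uroc1, Calb1, Epb41l3, Slc8a1, Ptgfr and Rhcg. Pgam2 was at 553, 618, 536 and 662 CPM in early and 16.2, 28.2, 12.7 and 19.6 CPM in thick limb cells (5.004 ± 0.131 SE, adjusted p = 3e-11).

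Several genes of NCC control were higher in early DCT cells than in the thick limb. Of 19 genes of NCC control 8 were higher and 2 lower, against 14.4% and 16.2% of all genes. Among the higher were Klhl3 (3.41 ± 0.0759 SE, adjusted p = 7.3e-12) and Wnk1 (2.38 ± 0.103 SE, adjusted p = 3e-09). Wnk1 was at 420.1, 345, 652 and 538 CPM in thick limb cells. The potassium channel gene Kcnj10 was at 217, 215, 224 and 244 CPM in early and 88.9, 63.2, 80.2 and 72.7 CPM in thick limb cells (1.59 ± 0.0860 SE, adjusted p = 2.1e-08), while its partner Kcnj16 did not pass (-0.0036). Of 11 magnesium genes 5 were higher and 3 lower, against the same shares, with Cnnm2 (3.11 ± 0.127 SE, adjusted p = 1.8e-09) and Slc41a3, a magnesium carrier (4.06 ± 0.255 SE, adjusted p = 8.4e-08), among the higher. The 13 genes of the whole list summed to 8417, 10801, 8467 and 12528 CPM in early DCT cells. In thick limb cells they summed to more in each library, 20455, 22598, 15448 and 21225 CPM, and Umod was also higher there. Oxct1 was higher by 1.02 (adjusted p = 1.8e-07 by edgeR), and of 5 ketone body genes 3 were higher and 1 lower. Of 21 genes of fatty acid oxidation and PPAR targets 2 were higher and 5 lower (median -0.0014). Of 16 glycolysis genes 3 were higher and 8 lower, against 14.4% and 16.2% of all genes. At the limit of 100 CPM, the genes lowest against thick limb cells were Nccrp1, Slc5a1, Cldn10, Cldn16, Sycn, Plau, Irx1, Tmem207, Eprn and Slc9a3. Cldn10, the claudin of paracellular sodium passage, was at 28.1, 39.5, 28.5 and 34.8 CPM in early and 829, 1265, 942 and 1213 CPM in thick limb cells (-5.001 ± 0.0778 SE, adjusted p = 3.7e-13). Of the 18 immediate early genes 17 were lower in early DCT cells and 1, Nr4a1, was higher.

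Diet and genotype were compared next, with 1 library per condition and so without a test. All intervals below cover counting error only. The share of early DCT cells among the cells kept was 4.67% (4.28 to 5.09%), 4.15% (3.77 to 4.57%), 5.64% (5.10 to 6.22%) and 7.21% (6.63 to 7.82%) (exact Clopper-Pearson 95% intervals). The share was highest in SP-HFD and lowest in WT-HFD, and HFD and ND stood in opposite orders in the 2 genotypes, with overlapping intervals in WT. These orders depended on the cells kept. Among cells with under 30% mitochondrial UMIs the shares were 3.46%, 2.64%, 4.14% and 3.68%, highest in SP-ND and lower in HFD in both genotypes. Of the Slc12a3 cells, 60.0% (56.6 to 63.3%), 72.4% (68.4 to 76.0%), 58.0% (54.1 to 61.8%) and 72.9% (69.5 to 76.1%) were early. This share was higher in both HFD libraries. The rule compares Pvalb with S100g, and S100g in late cells was 26486, 15570.0, 30089.6 and 23649.5 CPM, lower in each HFD library than in the ND library of its genotype. A change in the share of early cells and a change in S100g per cell cannot be told apart here. Digestion of the tissue also sets shares of cells, and its part was not tested.

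Between diets, early DCT cells of HFD kidneys had more Calb1, Slc8a1, Umod, Pcbd1, Ier3 and Pim3 and fewer metallothionein transcripts, in WT and in SP. Ratios are HFD over ND on the log2 scale with an exact conditional 95% interval in brackets, for genes at 50 CPM or more in either library. In WT, 35 of 2324 genes (1.51%) were at least 2-fold higher and 16 (0.688%) at least 2-fold lower in HFD. In SP the counts were 28 of 2380 (1.18%) and 15 (0.63%). In both genotypes at once, 13 of 2222 genes (0.585%) were higher and 4 (0.18%) lower. The split in WT depended on the cells kept, with 28 higher and 29 lower without doublet-like cells and 24 and 28 with Slc12a3 at 20 per 10000 or more, while in SP the same settings gave 30 and 15 and 29 and 16. The 2 diet ratios share no library. The median ratio over all genes was 0.012 in WT and 0.064 in SP, and 95% of genes lay between -0.60 and 0.75 in WT and between -0.50 and 0.70 in SP.

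**Figure D3:**
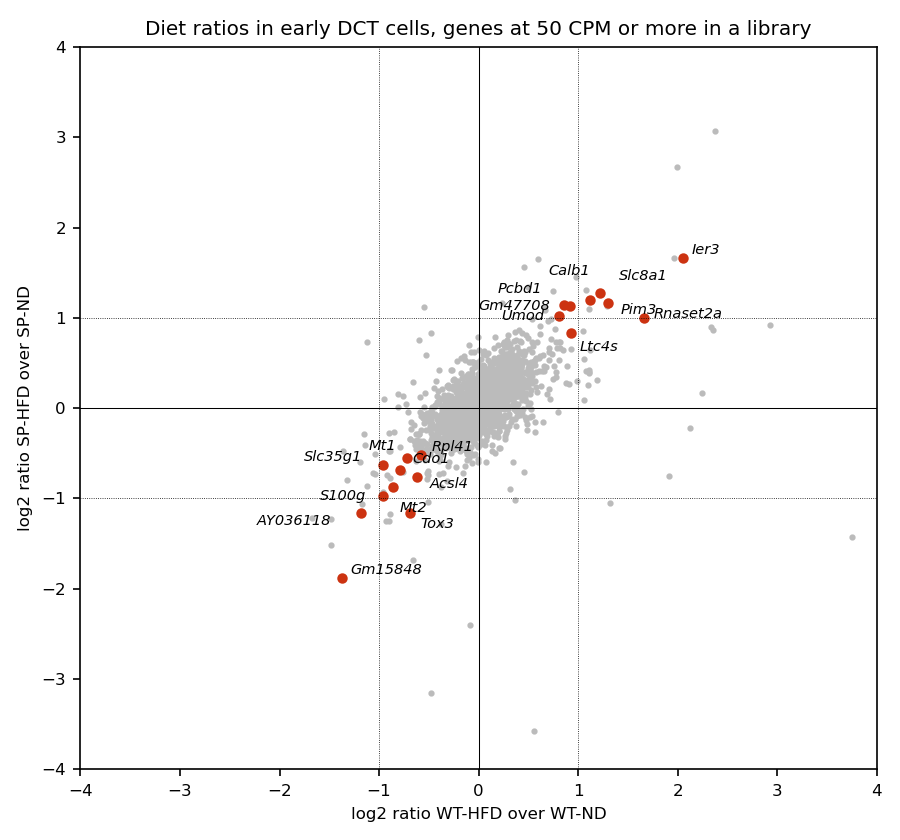
Log2 ratio of HFD over ND in early DCT cells for 2482 genes, in WT (horizontal) and SP (vertical), with 1 point per gene. Red points are the genes named for the size of their ratio in both genotypes, and 10 genes, Igkc among them, lie outside the axes; Calb1 sits at 1.12 and 1.20, and Gm15848 at -1.37 and -1.88.

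Calb1 and Slc8a1 were higher in HFD in early DCT cells, and the direction depended on which DCT cells were counted. Calb1 in early DCT cells was 595, 1295, 598 and 1371 CPM (Poisson 95% intervals 569 to 623 in WT-ND and 1259.8 to 1332 in WT-HFD), a ratio of 1.12 [1.04 to 1.20] in WT and 1.20 [1.12 to 1.27] in SP. Slc8a1 was 217, 507, 208 and 506 CPM, a ratio of 1.22 [1.09 to 1.35] in WT and 1.28 [1.15 to 1.41] in SP. Both genes were over 2-fold higher in the HFD library of each genotype. In late cells the order was opposite, with Calb1 at 4615, 2522, 6214 and 3758 and Slc8a1 at 3294, 2301, 3849.8 and 3139.7 CPM. Over all 2799 Slc12a3 cells Calb1 was 2325, 1637, 3171 and 2014 CPM, ratios of -0.51 in WT and -0.65 in SP, and Slc8a1 had ratios of -0.60 and -0.62. In the 125, 172, 97 and 251 early cells with at least 5 Pvalb UMIs and no S100g UMI, Calb1 was 549, 1339, 413 and 1337 CPM, ratios of 1.29 and 1.69. Slc8a1 had ratios of 1.59 and 2.06 in these cells. Which cells lack an S100g UMI also depends on depth and on the S100g background, which was higher in both ND libraries. Calb1 in Ptprc-positive cells was lower in HFD, at 282, 28.5, 435 and 134 CPM. A higher Calb1 level within early DCT cells and a shift of cells across the Pvalb and S100g cut cannot be told apart. The set of all Slc12a3 cells and the set with no S100g UMI were chosen after the values were seen.

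Other genes of calcium and magnesium handling were compared in the same way. Kl, the coreceptor klotho, was 599.8, 956, 462 and 982 CPM in early DCT cells (ratios 0.67 [0.59 to 0.75] in WT and 1.09 [1.002 to 1.18] in SP), and over all Slc12a3 cells its ratios were -0.043 and 0.17. Pth1r, the parathyroid hormone receptor gene, was 114, 187, 117 and 179.9 CPM, with ratios of 0.71 and 0.62, and 0.22 and 0.23 over all Slc12a3 cells. Pcbd1 was 225, 409, 225 and 495 CPM, ratios of 0.86 [0.73 to 0.99] in WT and 1.14 [1.01 to 1.26] in SP, and over all Slc12a3 cells the ratios were 0.86 and 1.07. Umod was 2892, 5067, 3046 and 6169 CPM, ratios of 0.81 [0.77 to 0.85] in WT and 1.02 [0.98 to 1.05] in SP, and 0.97 and 1.21 over all Slc12a3 cells. The HFD libraries were thus higher in Pcbd1 and Umod in early DCT cells and over all Slc12a3 cells, while late cells had Umod at 745, 1191, 741 and 719 CPM, level in SP. Slc41a3 was 13.7, 32.3, 11.9 and 31.5 CPM, under the 50 CPM limit, with ratios of 1.24 [0.72 to 1.77] in WT and 1.40 [0.87 to 1.97] in SP. Of 6 magnesium genes at 50 CPM or more, 0 were 2-fold higher in WT and 2, Pcbd1 and Umod, in SP, against 1.51% and 1.18% of all genes. Trpm6 had ratios of 0.42 [0.24 to 0.59] in WT and -0.082 [-0.25 to 0.083] in SP, and Trpm7 had ratios of 0.049 and 0.025.

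**Figure D4:**
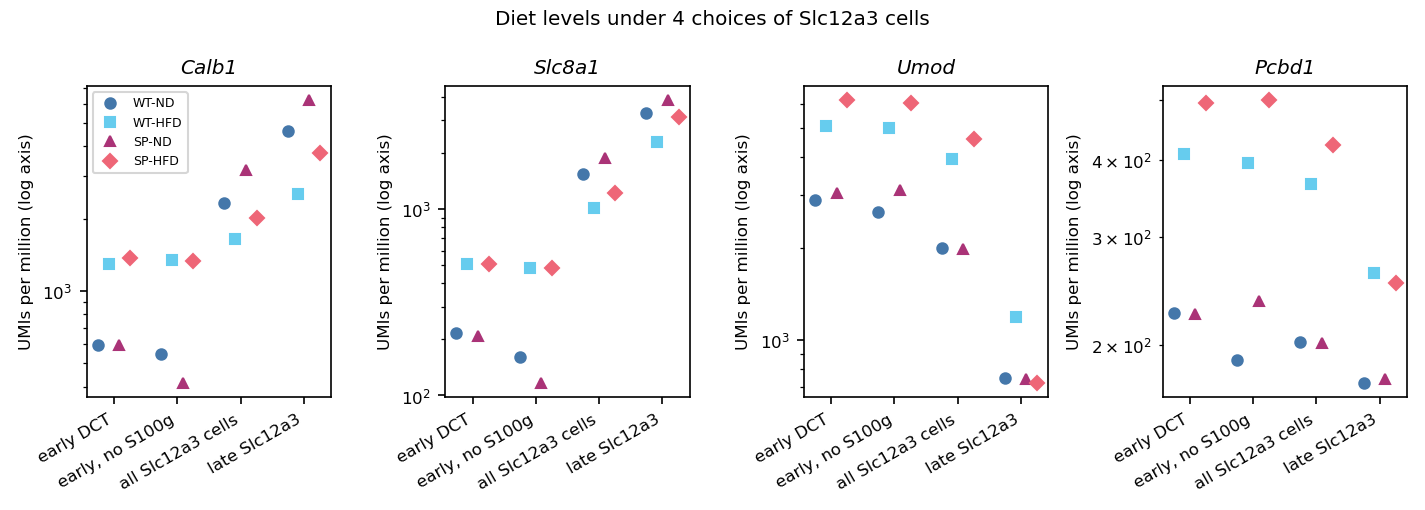
Calb1, Slc8a1, Umod and Pcbd1 (CPM) by library in all early DCT cells, in early DCT cells with at least 5 Pvalb and no S100g UMIs, in all Slc12a3 cells and in late DCT cells. Calb1 and Slc8a1 are higher in HFD in both early sets and lower in HFD over all Slc12a3 cells, while Umod and Pcbd1 are higher in HFD in all 3 of these sets.

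Genes of the NCC pathway had small diet ratios. Slc12a3, which the rule used, was 6025, 5307, 6730.1 and 5376 CPM. Wnk1 had ratios of -0.19 [-0.23 to -0.14] in WT and -0.10 [-0.14 to -0.061] in SP, Wnk4 of -0.18 [-0.28 to -0.074] in WT and -0.012 [-0.11 to 0.091] in SP, Stk39 of -0.16 [-0.36 to 0.036] in WT and -0.17 [-0.35 to 0.016] in SP and Klhl3 of 0.057 [-0.063 to 0.18] in WT and -0.093 [-0.21 to 0.023] in SP. None of these 4 genes came near a 2-fold ratio. Of 10 NCC control genes at 50 CPM or more, 0 were 2-fold higher in either genotype and 1 was 2-fold lower, Hsd11b2, the enzyme that keeps glucocorticoids from the mineralocorticoid receptor, in WT at 71.1, 32.0, 50.4 and 41.2 CPM, whose level in Ptprc-positive cells was 579.8, 50.3, 342 and 223 CPM. Among all genes 1.51% were 2-fold higher and 0.688% lower in WT and 1.18% and 0.63% in SP, so that counts of 0 among so few genes do not set a list apart. Of 12 genes of fatty acid oxidation at that level 0 were 2-fold higher or lower, with median ratios of -0.052 in WT and 0.17 in SP, and Cpt1a, the gate of mitochondrial fatty acid entry, had ratios of -0.10 [-0.26 to 0.057] in WT and 0.31 [0.16 to 0.46] in SP. Oxct1 had ratios of -0.12 [-0.17 to -0.066] in WT and 0.085 [0.035 to 0.14] in SP.

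Stress and immediate early genes were higher in HFD for some members. Ier3, an early response gene of cell survival, was 127, 526, 112 and 353 CPM in early DCT cells (ratios 2.06 [1.90 to 2.21] in WT and 1.66 [1.49 to 1.83] in SP), with late cells at 177, 533, 125 and 441 CPM, thick limb cells at 189, 514, 284 and 555 CPM and Ptprc-positive cells level at 151, 162, 161 and 149 CPM. The HFD library was higher in each tubule group of each genotype. Nr4a1, a nuclear receptor gene induced by stimulation, was 17.5, 133, 28.2 and 53.3 CPM (2.93 [2.52 to 3.35] in WT and 0.92 [0.56 to 1.30] in SP). Fos was 152, 199, 142 and 160.0 CPM (0.38 [0.22 to 0.55] in WT and 0.18 [0.0028 to 0.35] in SP), and Jun had ratios of 0.38 [0.20 to 0.55] in WT and -0.20 [-0.39 to -0.016] in SP. Of the immediate early genes compared, 3 of 13 were 2-fold higher in WT and 1 of 11 in SP, against 1.51% and 1.18% of all genes, with medians of 0.38 and 0.13. Some, such as Nr4a1 in WT, passed the 50 CPM limit only through the HFD library. That limit favours ratios above 0, so these counts and medians are not read as a result. The immune, endothelial and mural marker sums given above were also higher in the HFD library in WT, and the immune sum in SP, and Ptprc-positive cells held 11909.6, 16526, 12492 and 12182 CPM of the immediate early genes. The part of other cell types in these ratios was not tested. Hspa1a, an inducible heat shock gene, was 96.0, 205, 126 and 150.1 CPM (1.10 [0.90 to 1.29] in WT and 0.26 [0.074 to 0.44] in SP), and in Ptprc-positive cells 1395, 2530.4, 1767 and 1624 CPM. The mitochondrial share was higher by a few points in the HFD library of each genotype, and its part in these ratios was not tested. Ccnd1, cyclin D1, was 255, 429, 244 and 598 CPM (0.75 [0.63 to 0.87] in WT and 1.30 [1.18 to 1.41] in SP), and Pim3, a survival kinase, was 62.2, 153, 70.6 and 158 CPM (1.30 [1.07 to 1.54] in WT and 1.16 [0.94 to 1.39] in SP).

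Metallothioneins were lower in HFD. Mt1 was 2727, 1651, 2523 and 1719 CPM (-0.72 [-0.77 to -0.68] in WT and -0.55 [-0.60 to -0.51] in SP) and Mt2 was 365, 201, 340.1 and 186 CPM (-0.86 [-0.99 to -0.73] in WT and -0.87 [-1.003 to -0.74] in SP). The same order held in Ptprc-positive cells, with Mt1 at 599.9, 234, 526 and 314 CPM, and the part of free RNA in the ratios was not tested. Late cells were nearly level, with Mt1 at 1551, 1434, 1447 and 1438 CPM. Among genes named by the size of both ratios, the unnamed transcript Gm15848 was lowest at 116, 44.7, 177 and 48.1 CPM (-1.37 [-1.64 to -1.11] in WT and -1.88 [-2.11 to -1.65] in SP). It was low elsewhere, at 1.29 to 25.5 CPM in late cells, 3.70 to 6.36 CPM in thick limb cells and 0.484 to 1.36 CPM in Ptprc-positive cells. AY036118 was 1515, 667, 1026 and 459.6 CPM, and it was lower in HFD in Ptprc-positive cells as well (2618, 1208, 1725 and 1193 CPM). Tox3, a chromatin protein gene, was 135, 83.4, 199 and 88.6 CPM (-0.69 [-0.90 to -0.48] in WT and -1.16 [-1.35 to -0.98] in SP), and S100g, which the rule used, Acsl4, Cdo1, Slc35g1 and Rpl41 completed the lower genes. The higher genes not yet given were Igkc, Rnaset2a, Gm47708 and Ltc4s. Igkc, the immunoglobulin kappa constant gene, was 19.5, 1309.8, 5.30 and 104 CPM (6.07 [5.71 to 6.46] in WT and 4.30 [3.59 to 5.12] in SP), on 61, 5072, 16 and 474 UMIs. It was also higher in HFD in thick limb cells, at 23.4, 1086, 2.76 and 919 CPM, and in Ptprc-positive cells, at 2596, 12995, 4531 and 24995 CPM, and the part of free RNA in its ratios was not tested. Of the others, Rnaset2a was 57.7, 182, 54.4 and 109 CPM (1.66 [1.42 to 1.90] in WT and 1.002 [0.74 to 1.27] in SP). Named in 1 genotype were Gm10076, lower in HFD in WT (-1.36 [-1.56 to -1.17]), and Egr1, an immediate early factor gene, lower in HFD in SP (-0.90 [-1.12 to -0.69]). Its ratio in WT was 0.32 [0.066 to 0.57] and turned to -0.36 in the early cells with no S100g UMI.

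Clock output genes differed between diets in early DCT cells, and they were singled out after their values were seen. The circadian clock is a loop in which CLOCK and BMAL1 (Arntl) drive genes through the E-box CACGTG, and PER, CRY and REV-ERB proteins (Nr1d1, Nr1d2) repress it in turn. Dbp, a direct output of the loop, was 14.0, 56.0, 9.94 and 63.5 CPM (2.00 [1.52 to 2.50] in WT and 2.67 [2.13 to 3.27] in SP), and Tef, a related factor gene, was 24.6, 48.3, 21.9 and 59.7 CPM (0.98 [0.59 to 1.38] in WT and 1.45 [1.06 to 1.86] in SP). Per1 was 12.1, 37.4, 17.2 and 27.6 CPM (1.63 [1.10 to 2.18] in WT and 0.68 [0.20 to 1.17] in SP), and Nr1d2 was 37.3, 56.6, 20.2 and 63.7 CPM (0.60 [0.27 to 0.94] in WT and 1.66 [1.25 to 2.08] in SP). Nr1d1 had ratios of 0.14 in WT and 0.15 in SP over all Slc12a3 cells. In the early cells with no S100g UMI they were -0.018 and 0.090. In each of Dbp, Tef, Per1 and Nr1d2 both HFD libraries lay above both ND libraries. These 4 were picked from the 17 clock genes after their values were seen, and the share of all genes with this order was not counted. Arntl went the other way at 7.97, 2.84, 10.9 and 0.661 CPM (-1.49 [-2.66 to -0.41] in WT and -4.05 [-6.40 to -2.38] in SP), which for SP-HFD rests on 3 UMIs. Late and thick limb cells had the same order, with Dbp at 13.5, 41.2, 5.63 and 56.2 and 40.7, 68.4, 16.9 and 74.5 CPM. In Ptprc-positive cells Dbp was 11.9, 11.8, 8.78 and 32.9 CPM, level between diets in WT, and the whole clock list summed to 330.1, 286, 250.5 and 323 CPM, lower in HFD in WT, against 255, 390.5, 235 and 408 CPM in early DCT cells. In the early cells with no S100g UMI, Per1 in SP turned to -0.24 and Arntl in WT to 0.38. Most clock genes lay under 50 CPM, and the time of day at harvest is not given in the sources used here. Of 14 clock genes with a RefSeq window, 5 (Ciart, Bhlhe41, Cry1, Per1 and Tef) held CACGTG in the 250 bases before an annotated start. Of the 32851 windows 6.02% held it. A gene can have several windows, as Per1 and Tef have 2 each, so the count of genes and the share of windows are not like measures. The windows of Per1, at chr11:69098699-69098948 (plus strand), and Tef, at chr15:81802423-81802672 (plus strand), are shown with CACGTG, which reads the same on both strands, in capitals.
Per1: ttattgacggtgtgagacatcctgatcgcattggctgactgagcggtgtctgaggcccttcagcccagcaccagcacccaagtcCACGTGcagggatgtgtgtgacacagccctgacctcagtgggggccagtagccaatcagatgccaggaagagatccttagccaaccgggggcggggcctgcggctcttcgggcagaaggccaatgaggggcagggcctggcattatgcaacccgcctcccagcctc
Tef: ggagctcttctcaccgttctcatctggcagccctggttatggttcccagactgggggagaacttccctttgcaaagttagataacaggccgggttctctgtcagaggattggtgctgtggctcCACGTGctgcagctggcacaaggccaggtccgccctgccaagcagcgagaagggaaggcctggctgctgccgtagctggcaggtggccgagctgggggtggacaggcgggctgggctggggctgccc
Each window had 1 copy, and the match says only that these letters are present.

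**Figure D5:**
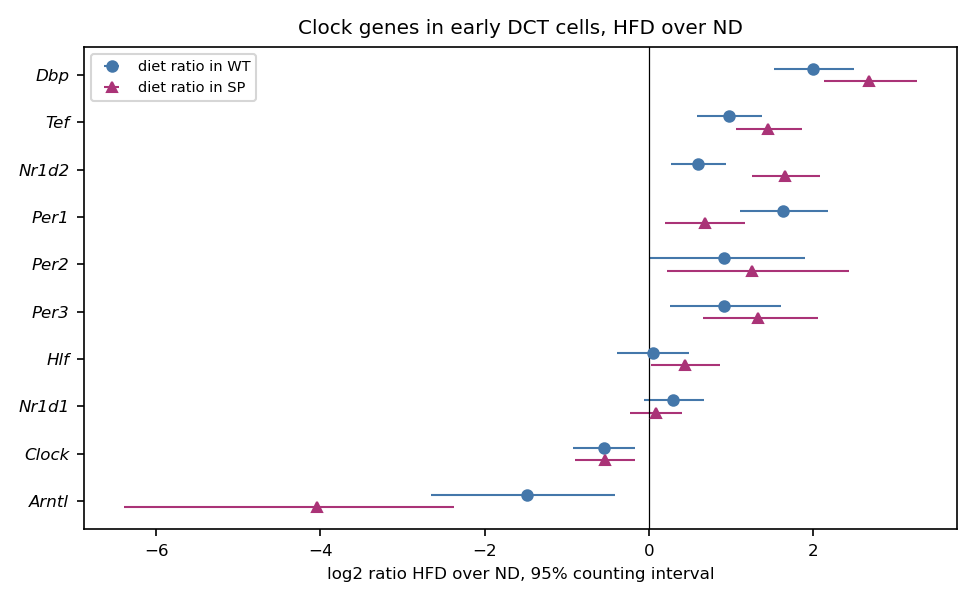
Log2 ratio of HFD over ND in early DCT cells for 10 clock genes in WT and SP, with exact 95% intervals for counting error. In all early DCT cells Dbp, Tef, Per1 and Nr1d2 lie right of 0 and Arntl left of it in both genotypes; with no S100g UMI, Per1 in SP and Arntl in WT turned.

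Genotype differences were fewer. On ND, SP over WT, 2 of 2288 genes (0.0874%) were at least 2-fold higher and 17 (0.743%) at least 2-fold lower. On HFD the counts were 3 of 2306 (0.13%) and 23 (0.997%). The ND counts were 10 and 17 without mitochondrial and proximal tubule genes in the total, 9 and 25 in cells with under 30% mitochondrial UMIs and 20 and 33 in early cells with no S100g UMI. The HFD split was lost without doublet-like cells (6 higher and 3 lower) and with Slc12a3 at 20 per 10000 or more (4 and 5). In both diets at once 0 of 2112 were higher and 3 (0.142%) lower. Each of these ratios shares its libraries with a diet ratio. Of the proximal tubule markers compared, 5 of 10 on ND and 1 of 6 on HFD were 2-fold lower in SP. Between the 2 SP libraries 7 were compared, so some on ND passed the 50 CPM limit only through WT-ND, where they were high. That limit favours ratios below 0, and the rule capped Slc34a1 and Lrp2 of this list. These counts are thus not read as a result. The cytochrome P450 gene Cyp4b1 (209, 119, 54.7 and 55.1 CPM, with 3076, 2462, 1704 and 2868 CPM in proximal tubule cells) and the glucuronosyltransferase gene Ugt2b38 (141, 97.4, 35.8 and 53.8 CPM) were lower in SP. They moved together with the proximal tubule background described above, whose part in them was not tested.

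Klk1 ranked first by the rule for genes higher in SP on both diets, and its UMIs came from a minority of the cells. In early DCT cells it was 105, 87.3, 178 and 211 CPM (0.77 [0.57 to 0.97] on ND and 1.27 [1.09 to 1.46] on HFD), in late cells 1979, 1698, 4099 and 5499.9 CPM and in Ptprc-positive cells 199, 23.1, 222 and 87.7 CPM. Both DCT groups were higher in each SP library than in the WT library of the same diet. A Klk1 UMI was present in 30.3, 32.0, 48.6 and 48.0% of early DCT cells, and the 10% of cells with the most held 58.8 to 71.6% of its UMIs. In the early cells with no S100g UMI it was 47.9, 67.6, 111 and 119 CPM, ratios of 1.21 on ND and 0.81 on HFD. On ND the level in early DCT cells was below that in Ptprc-positive cells, so the ND ratio is not read as a difference in expression, and the part of free RNA in it was not tested. Txnip, a thioredoxin-binding protein whose gene responds to glucose, was 346, 399, 686 and 507 CPM (0.99 [0.88 to 1.09] on ND and 0.35 [0.25 to 0.44] on HFD), and Slc5a3, the osmolyte carrier for myo-inositol, was 256, 274, 323 and 356 CPM (0.34 [0.20 to 0.47] on ND and 0.38 [0.27 to 0.49] on HFD). Gadd45g, a gene of growth arrest, was 92.2, 199, 184 and 242 CPM (0.997 [0.79 to 1.21] on ND and 0.28 [0.15 to 0.42] on HFD), and Pycard, an inflammasome adaptor, was 41.5, 49.8, 110.4 and 87.3 CPM, highest on ND in SP. Ppargc1a, the coactivator of mitochondrial biogenesis, was 248, 241, 292 and 304 CPM (0.24 [0.096 to 0.38] on ND and 0.34 [0.21 to 0.46] on HFD). Scd2, Arhgap5, Efhd1, Sorl1 and Actr3 made up the rest of the genes higher on both diets by this rule. In the early cells with no S100g UMI the ND ratio of Gadd45g was 0.20 and that of Efhd1 turned to -0.39. On 1 diet, Prss23, a protease gene (0.67 [0.45 to 0.88]), and Slc12a1, the thick limb cotransporter (0.69 [0.53 to 0.86]), were higher in SP on HFD, and Selenop, a selenium carrier (-0.83 [-1.01 to -0.64]), was lower in SP on ND, at 222, 148, 125 and 137 CPM in early DCT cells and 398, 351, 372 and 392 CPM in Ptprc-positive cells. Cryab, a small heat shock protein, led the lower genes at 124, 106, 56.3 and 46.1 CPM (-1.14 [-1.41 to -0.87] on ND and -1.20 [-1.45 to -0.96] on HFD), with late cells at 222, 457, 81.0 and 67.1 CPM. Its ratio changed sign without doublet-like cells on HFD (0.68) and with a Slc12a3 limit of 20 per 10000 on ND (0.19). Gpx1, Ggt1, S100a13, Timp3, Actb and Rps27 were lower by smaller amounts (Timp3 on ND turned to 0.14 in the early cells with no S100g UMI), Gpx1 at 236, 175, 171 and 140.0 CPM (-0.46 [-0.63 to -0.30] on ND and -0.32 [-0.48 to -0.16] on HFD).

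Single genes of NCC control and magnesium handling had small genotype ratios. Wnk1 had ratios of 0.044 [-0.0015 to 0.089] on ND and 0.13 [0.088 to 0.17] on HFD, Klhl3 of 0.085 [-0.041 to 0.21] on ND and -0.065 [-0.17 to 0.044] on HFD and Egf of -0.045 [-0.079 to -0.011] on ND and 0.18 [0.15 to 0.21] on HFD. Of 10 genes of NCC control on ND and 9 on HFD, 0 were 2-fold higher or lower, and the same held for 6 magnesium and 12 fatty acid oxidation genes on each diet. Among all genes 0.0874% were higher and 0.743% lower on ND and 0.13% and 0.997% on HFD, so that counts of 0 do not set these lists apart. Fatty acid oxidation genes had a median ratio of -0.0012 on ND and 0.17 on HFD, against medians over all genes of -0.0049 and 0.048. Trpm6 had ratios of 0.33 [0.15 to 0.52] on ND and -0.16 [-0.32 to -0.013] on HFD. On HFD 13 immediate early genes were compared, and 11 between the 2 SP libraries. Some thus passed the 50 CPM limit only through WT-HFD, where they were high. That limit favours ratios below 0, so the 0 of 13 above 0 and the median of -0.31 are not read as a result. At least 2-fold lower in SP were 2 (against 0.997% of all genes), Nr4a1 (-1.32 [-1.55 to -1.10]) and Klf2 (-1.37 [-1.75 to -0.998]). The immune, endothelial and mural marker sums given above were also lower in SP-HFD than in WT-HFD early DCT cells. The immediate early genes summed to 1276, 2098, 1399 and 1574 CPM in early DCT cells, and the part of other cell types in these ratios was not tested.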

How the data were processed

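Single-cell RNA-Seq was done on digested kidneys of 4 groups of mice with 10x Genomics 3′ chemistry. The authors aligned reads to mm10 with Cell Ranger and deposited raw UMI counts per gene and barcode. The file header names Cell Ranger 6.1.2 and the submitters' processing notes 2.1.1, the methods of the study give another version, and which one made the counts was not settled. Library totals were 93142028, 115117649, 111617794 and 90728590 UMIs over 16385, 15000, 14046 and 13229 barcodes (WT-ND, WT-HFD, SP-ND, SP-HFD). The files held 0 columns of other samples.

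Cells were gated as described above. Late DCT cells met the same limits with more S100g than Pvalb. Thick limb cells had at least 5 UMIs and 10 per 10000 of Slc12a1, and Ptprc-positive cells at least 2 Ptprc UMIs. Proximal tubule cells had at least 5 UMIs and 10 per 10000 of Slc34a1 and Lrp2 together. All of these had Slc12a3 under 10 per 10000. Thick limb and Ptprc-positive cells also had Slc34a1 and Lrp2 together under 10 per 10000, and Ptprc-positive cells had Slc12a1 under 10 per 10000. Ptprc was not limited in thick limb or proximal tubule cells, nor Slc12a1 in proximal tubule cells. UMIs were summed per library and cell group. Cell groups were compared with edgeR 4.0.16 in R 4.3.3 (TMM, filterByExpr with a minimum count of 10, quasi-likelihood test, library as a block), with DESeq2 1.42.0 as an alternative. Conditions have 1 library each, so ratios of CPM are given with exact 95% intervals and no test, with counts of 0 set to a floor of 3. No doublets were removed. Named genes were the 10 highest and 10 lowest in each edgeR comparison (adjusted p below 0.05, 100 CPM or more), the 5 highest and 5 lowest of each ratio, and the 10 each way with the largest smaller ratio in both genotypes or both diets. Other genes come from 29 lists. Results for a few genes are not reported here. The members and lists were chosen with earlier results of these data known. In simulated counts, edgeR recovered 99 of 100 2-fold and 100 of 100 4-fold changes for early against late cells, with 4 false calls in 203, and 95 and 100 against thick limb cells, with 6 in 201. The changed genes were drawn only from genes with many UMIs, and the spread was fixed and not estimated from these data. The intervals held the truth for 96.1% of 2000 simulated ratios, whose counts were drawn from the Poisson model that the intervals assume. Neither check measures performance on these data.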

Additional observations from a re-analysis of the deposited data

Results flagged for a closer look

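Ugt2b38, a glucuronosyltransferase gene of the proximal tubule, had diet ratios of opposite sign in early DCT cells, -0.53 in WT and 0.59 in SP on the log2 scale. Over all Slc12a3 cells the WT ratio was 0.050. The difference between these ratios was not tested, since each condition has 1 library, and the summed proximal tubule markers differed between the same libraries.

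Barcodes with 50% or more mitochondrial UMIs were left out of every comparison. Of these, 1.60% (86 of 5361) of the WT-ND barcodes and 2.15% (107 of 4983) of the WT-HFD barcodes met all other limits for early DCT cells. In SP the shares were 1.40% (98 of 6991) on ND and 2.80% (156 of 5574) on HFD. The share was higher in the HFD library of each genotype.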

How the results depend on the processing

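Early DCT cells were taken by limits on a few genes, and each condition has 1 library, so the spread between animals is unknown and a list of 2-fold ratios moves with the cells and the filter. No paired analysis was possible because the 4 conditions have 1 library each and share only the number 1. A model with diet and genotype as additive terms was not fitted. The cause of each change below was not tested, except where fewer genes, samples or cells entered. Of 420 values of the 40 genes named in the edgeR comparisons under the alternatives, 419 kept direction and side of the threshold, the exception being Atp6v1g3. Of 2766 values of ratios, 2348 moved by less than their interval, 400 moved by more, and 18 values of ratios that were 2-fold or more changed sign. Smaller ratios that changed sign are counted among the others.

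Genes higher and lower in early than late cells numbered 633 and 608. DESeq2 gave 273 and 294, a fit without the library block 334 and 364, cells with under 30% mitochondrial UMIs 292 and 303, and no filter on low counts 971 higher. Leaving out 1 library gave 434 to 598 higher and 422 to 565 lower. Against thick limb cells DESeq2 gave 1015 higher and 1152 lower in place of 1666 and 1875, cells with under 30% mitochondrial UMIs gave 1231 lower, and leaving out 1 library gave 1318 to 1425 higher and 1511 to 1582 lower.

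Counts of 2-fold ratios moved as follows. With a 20 CPM filter the diet ratio had 88 higher and 39 lower in WT and 55 and 45 in SP, and the genotype ratio 15 and 41 on ND and 10 and 50 on HFD. With means over cells there were 54 higher by diet in WT, 4 higher by genotype on ND and 41 lower on HFD, and the higher share of the WT diet calls was 80.6% in place of 68.6%. Without mitochondrial and proximal tubule genes in the total there were 54 higher by diet in WT, and 10 higher by genotype on ND and 5 on HFD, with 37.0% of the ND calls higher in place of 10.5%. TMM scaling gave 4 higher by genotype on ND. With Slc12a3 at 20 per 10000 or more there were 28 lower by diet in WT, 5 higher by genotype on ND and 5 lower on HFD. Cells with under 30% mitochondrial UMIs gave 26 lower by diet in WT, 9 higher by genotype on ND and 6 higher on HFD. Slc34a1 and Lrp2 under 5 per 10000 gave 12 lower by genotype on HFD. Without doublet-like cells there were 29 lower by diet in WT, 6 higher by genotype on ND, and 6 higher and 3 lower on HFD. Over all Slc12a3 cells, a set added after the data were seen, there were 9 lower by diet in WT and 18 higher and 8 lower in SP. Early cells with no S100g UMI, also added later, gave 36 lower by diet in WT, 56 higher and 30 lower in SP, 20 higher and 33 lower by genotype on ND and 5 higher on HFD.

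Ratios of 2-fold or more that changed sign were these. Over all Slc12a3 cells the diet ratios were -0.60 in WT and -0.62 in SP for Slc8a1 and -0.51 and -0.65 for Calb1. With Slc12a3 at 20 per 10000 or more, Hbb-bs was -1.59 by diet in SP and -1.34 by genotype on HFD, Hba-a1 was -0.0035 and -0.34, and Cryab was 0.19 by genotype on ND. With under 30% mitochondrial UMIs Hbb-bs was -1.45 and -1.71 and Hba-a1 was -0.45 and -0.12. Without doublet-like cells the genotype ratios on HFD were 0.36 for Igkc, 0.93 for Cd74, 1.25 for Jchain, 1.03 for Igha and 0.68 for Cryab. Other ratios named in the text also turned in early cells with no S100g UMI, among them Efhd1 (-0.39) and Timp3 (0.14) by genotype on ND, Per1 by diet in SP (-0.24), and Arntl (0.38) and Egr1 (-0.36) by diet in WT.

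Shares of kept cells (WT-ND, WT-HFD, SP-ND, SP-HFD) were 3.46%, 2.64%, 4.14% and 3.68% under 30% mitochondrial UMIs and 6.81%, 9.61%, 9.61% and 14.5% without doublet-like cells. The last setting also took most cells of other types out of the total: in WT-HFD the kept cells fell from 9700 to 3183 and the Ptprc-positive cells from 396 to 1, and the early DCT cells from 403 to 306, so these shares do not measure the part of doublets. They were 4.10% in WT-ND and 3.72% in WT-HFD with Slc34a1 and Lrp2 under 5 per 10000, 3.58% in WT-HFD with Slc12a3 at 20 per 10000 or more, and with at least 1000 UMIs per cell 5.74% in WT-ND and, among SP cells, 6.29% on ND and 7.91% on HFD. Shares of Slc12a3 cells were 67.3% in WT-ND and 63.1% in SP-ND under 30% mitochondrial UMIs, 78.5% in WT-HFD and 62.9% in SP-ND without doublet-like cells, and in WT-HFD 76.3% and 76.8% with the Slc12a3 and the Slc34a1 and Lrp2 limits.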
